A study of Mus musculus with 6 samples.

Results

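The genes described here encode the cytosolic translation initiation and elongation factors of the mouse, with the enzymes whose symbols follow them. They were chosen by symbol alone: names that begin with Eif1 to Eif6 or with Eef1 or Eef2, without the eIF2 kinases, the 4E-BP genes and Eif4enif1. The rule found 63 of the 21936 genes in the deposited table. The cells were PAM212, a mouse keratinocyte line grown in DMEM with fetal bovine serum, and polyadenylated RNA was sequenced from 3 control libraries and 3 libraries of miR-28-3p overexpressing cells, made by lentiviral infection. The control libraries are titled NC and labelled as untreated PAM212 cells, so an effect of infection itself and one of the microRNA cannot be told apart. The series' design line names melanocytes, while each sample's labels name keratinocytes. Whether the libraries came from separate cultures is not stated in the labels, and all p-values then measure only the spread between these libraries, which may be technical.

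Initiation begins when eIF2, bound to GTP and the initiator methionyl-tRNA, joins the small ribosomal subunit together with eIF1, eIF1A, eIF3 and eIF5. The eIF4F complex, made of the cap-binding protein eIF4E, the scaffold eIF4G and the RNA helicase eIF4A, brings this particle to the capped end of the messenger RNA, and it scans to a start codon. eIF5B then helps the large subunit to join, eEF1A delivers each aminoacyl-tRNA, and eEF2 moves the ribosome along by a codon. Phosphorylation of eIF2 and binding of eIF4E by 4E-BP proteins are the classical points of control, and messenger RNAs of elongation factors and ribosomal proteins often start with a pyrimidine tract, the 5' TOP motif, through which the mTOR pathway controls their translation.

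The overexpressed microRNA is miR-28a-3p in RefSeq (GRCm38.p6, chr16:24827908-24827929, plus strand). It is shown with bases 2 to 8, the seed that pairs with targets, in capitals, followed by the 3 tested factor messengers whose longest annotated 3' UTR held the matching letters ATCTAGT (capitals) on the sense strand.
miR-28a-3p: cACUAGAUugugagcugcugga
Eif5a2: ccattggtctggATCTAGTtgtcccaa
Eif4h: tttgctatatctATCTAGTgcctgttt
Eif5b: aagtacattaaaATCTAGTaacagtca
These 3 genes were 5.36% of the 56 tested factors, beside 6.72% of the 11679 tested genes with an annotated 3' UTR. The letters began at base 49 of 4391 in the 3' UTR of Eif5a2, at base 187 of 1788 in that of Eif4h and at base 2338 of 3866 in that of Eif5b. As counted, Eif5a2 and Eif4h were called higher and Eif5b did not pass the test. Of the 785 tested genes with the letters, 453 were higher and 219 lower (median log2 change 0.33). Of the 10894 tested genes with a 3' UTR but without the letters, 4488 were higher and 4890 lower (median -0.05). Whether the letters or gene length had a part in this was not tested. With upper quartile scaling Eif4h (log2 change -0.10) and Eif5b (-0.25) were called lower, as was Eif5b (-0.52) with a trend on gene length and GC content removed. The mature microRNA itself was not measured in these libraries.

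Library size was even, with 14309898 to 16383374 counted reads. Of the 63 factors, 60 had at least 1 read and 56 passed the low-count filter. Eef1a2, Eif2s3y and Eif4e1b had no read in any library, where a count of 0 allows a level of up to 0.183 to 0.21 CPM (the level of a gene relative to all counted reads, with libraries scaled by the trimmed mean of M-values, TMM), depending on the library. Eif4e3, Eif4a3l1, Eif4a3l2 and Eef1akmt3 were below the filter. Among lists of cell type markers, 11 of 12 keratinocyte genes were tested, with a summed level of 1155 to 1195 CPM in the controls and 1098 to 1118 CPM with overexpression, but Krt5, a defining keratin, was at 0 in all 6 libraries. Of the 11 tested keratinocyte genes 5 rose and 6 fell: Krt15 went from a mean of 21.4 CPM to 0, Jup from 379 to 146 CPM and Trp63 from 1.13 to 0.11 CPM, while Itga6 went from 139 to 329 CPM and Sfn from 33.1 to 87.9 CPM. Melanocyte markers summed to 8.05 to 9.78 CPM against 7.33 to 8.22 CPM (2 of 8 tested, Tyr and Kit at 0), and fibroblast markers to 43.3 to 52 against 16.2 to 17.1 CPM (2 of 6 tested, Lum at 0). Immune markers summed to 17.1 to 20.6 against 4.11 to 5.74 CPM (1 of 5 tested, Cd3e and Adgre1 at 0) and endothelial markers to 0.126 to 0.318 against 0.396 to 0.758 CPM (0 of 4 tested, Kdr at 0). The part of these markers in the results was not tested.

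With overexpression, 28 of the 56 tested factors rose, 22 fell and 6 did not pass the test (edgeR's quasi-likelihood test, Benjamini-Hochberg adjusted over all tested genes). The same test called 86% of the 11809 tested genes, 42.1% as higher and 43.9% as lower, so the number of factors called is near the background. The median change of the factors was 0.06 on the log2 scale, beside -0.03 over all tested genes, and single factors ranged from -1.35 to 2.12. All 3 libraries of one group lay above all 3 of the other for 28 factors that were higher and 22 that were lower, beside 42.2% and 43.8% of all tested genes. At least a 2-fold change was called for 12 higher factors and 3 lower ones, where 14.8% and 21% of all tested genes changed that much. Against a minimum change of 1.5-fold, 17 factors rose and 11 fell, where the background was 23.4% and 27%.

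**Figure D1:**
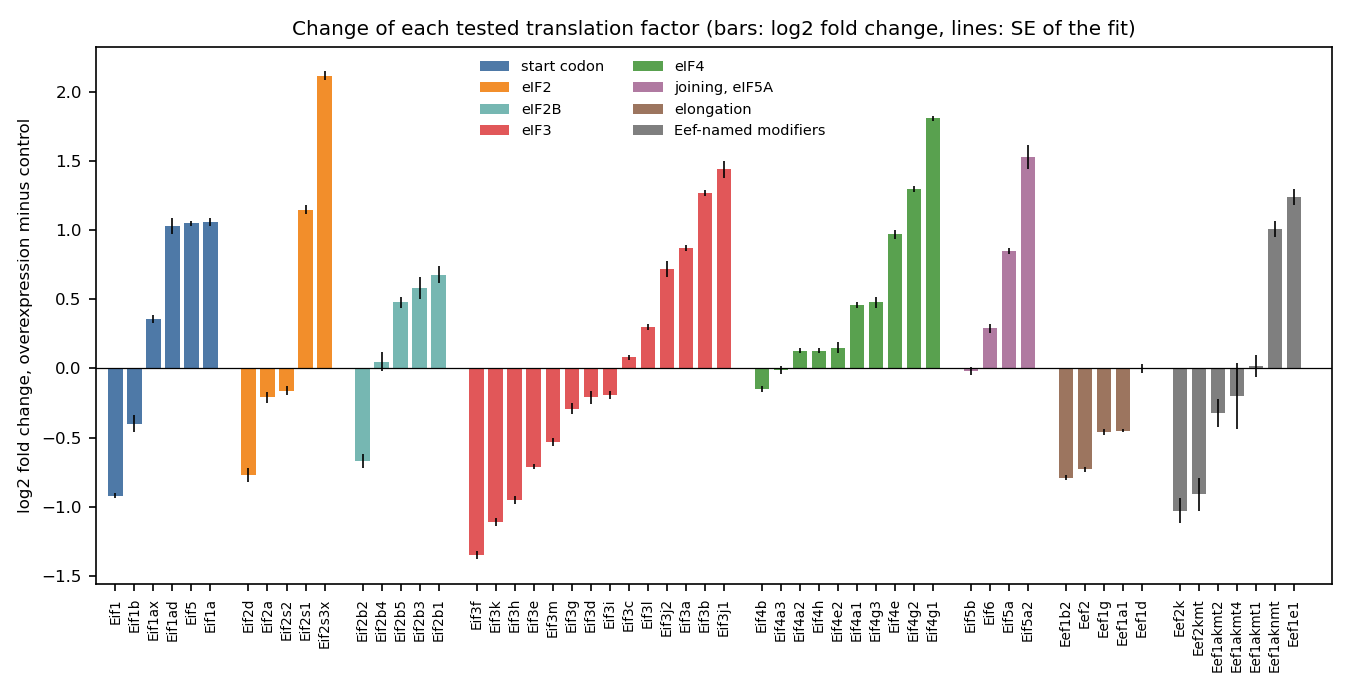
Log2 fold change (overexpression minus control) of the 56 tested factors, grouped by role; bars give the edgeR estimate and lines its standard error. Changes ran from -1.35 for Eif3f to 2.12 for Eif2s3x, and the elongation factor group has no bar above 0.00.

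Counts differed between roles, and over all tested genes 42.1% were higher and 43.9% lower as counted. Among the 10 tested eIF4 genes 8 rose and 1 fell, but with upper quartile scaling 5 were higher and 5 lower. Among the 6 start codon factors 4 rose and 2 fell, also with upper quartile scaling, and 5 were higher with a trend on gene length and GC content removed. eIF3 was split under each of these scalings, with 6 genes higher and 8 lower as counted, 5 and 9 with upper quartile scaling, and 7 and 6 with the trend removed. Of 5 tested elongation factors 4 fell and none rose, all 5 were lower with upper quartile scaling, and with the trend removed 3 were lower and Eef1g higher. Scaling mattered for small changes: with upper quartile scaling, which moved the median of all genes to -0.26, 23 factors were higher and 31 lower, beside 33.5% and 53.2% of all tested genes. With the length and GC trend removed, which moved that median to 0.12, 33 were higher and 16 lower, beside 47.7% and 37.7%. Of the 28 factors past the 1.5-fold minimum, 25 had the same call with the trend removed, and the exceptions were Eef2, Eef2kmt and Eif2b2.

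Among the factors of start codon selection, Eif5, whose product makes eIF2 hydrolyse its GTP, was at 400, 396 and 404 CPM in the controls and at 829, 821 and 827 CPM with overexpression, a rise of 2.06-fold (log2 change 1.05 ± 0.02 SE, adjusted p = 8.94e-46). Eif1, which keeps the scanning ribosome from stopping at wrong codons, went the other way, from 723, 740 and 709 CPM to 385, 376 and 389 CPM (1.89-fold lower, log2 change -0.92 ± 0.02, adjusted p = 1.07e-41). Neither gene's groups overlapped. Its paralog Eif1b fell from 51.4, 54.7 and 47.7 CPM to 39.3, 37.7 and 39.9 CPM (log2 change -0.40), a call that turned to 0.48 with the length and GC trend removed. Eif1a and Eif1ax, which encode the eIF1A that helps scanning, both rose (log2 changes 1.06 and 0.36), as did Eif1ad (1.03), named for its eIF1A-like domain. On deposited FPKM, which divides by gene length, Eif1a made up 36.7% ± 0.54 (SD, n = 3) of the sum of Eif1a and Eif1ax in the controls and 48.6% ± 0.591 with overexpression.

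The eIF2 complex has 3 subunits, alpha (Eif2s1), beta (Eif2s2) and gamma (Eif2s3x on the X chromosome). Eif2s3x, the subunit that binds GTP and the initiator tRNA, had the largest rise of all 56 tested factors. It went from 102, 103 and 107 CPM to 448, 444 and 465 CPM (4.35-fold, log2 change 2.12 ± 0.03, adjusted p = 9.5e-56). Every overexpression library was far above every control, and its Y-linked copy Eif2s3y had no read. Eif2s1, which carries the serine that stress kinases phosphorylate, rose from 117, 109 and 114 CPM to 253, 248 and 255 CPM (2.22-fold, log2 change 1.15 ± 0.03, adjusted p = 2.56e-39). Eif2s2 moved slightly the other way, with a log2 change of -0.16 ± 0.03 (adjusted p = 2.5e-06). On FPKM the 3 messengers lay within 1.7-fold of each other in the controls, from 23.7 for Eif2s1 to 40.1 for Eif2s2. With overexpression they spread over 3.41-fold, from 33.7 for Eif2s2 to 115 for Eif2s3x. The ratio of Eif2s3x to Eif2s2 was 0.71, 0.68 and 0.716 in the controls and 3.43, 3.18 and 3.64 with overexpression (exact permutation test, two-sided p = 0.1, the smallest that 3 against 3 libraries allow; 9 ratios of this kind were computed after the values were seen, adjusted p = 0.1 for each). Eif2d and Eif2a, which can deliver initiator tRNA without eIF2, both fell: Eif2d from 80.1, 85 and 83.6 CPM to 48.2, 47.9 and 50.2 CPM (1.7-fold, log2 change -0.77 ± 0.05), and Eif2a by a log2 change of -0.21.

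The exchange factor eIF2B reloads eIF2 with GTP. Its counts stand beside 42.1% of all tested genes higher and 43.9% lower as counted, and 47.7% higher with the length and GC trend removed. Of its 5 subunit genes 3 rose, 1 fell and Eif2b4 did not pass the test (log2 change 0.05, adjusted p = 0.464; -0.18 and called with upper quartile scaling). Eif2b5, the catalytic epsilon subunit, was at 89.6, 95.4 and 90.7 CPM in the controls and at 129, 130 and 124 CPM with overexpression (log2 change 0.48 ± 0.04). Eif2b1 and Eif2b3 rose with it (log2 changes 0.68 and 0.58). Eif2b2, which encodes the beta subunit, fell (log2 change -0.67), but with the length and GC trend removed its change was 0.17 and all 5 genes were called higher.

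eIF3 is the largest initiation factor, a scaffold on the small subunit, and its 14 genes did not move together. Eif3b rose from 316 CPM in each of the 3 controls to 764, 762 and 762 CPM (2.41-fold, log2 change 1.27 ± 0.02, adjusted p = 1.25e-49). Eif3a, the largest subunit, rose from 672, 675 and 682 CPM to 1231, 1234 and 1241 CPM (1.83-fold, log2 change 0.87 ± 0.02). The overexpression libraries of both genes lay well above their controls. Eif3j1, which encodes a loosely bound subunit, went from 28.1, 29.1 and 30.8 CPM to 78.7, 82.5 and 77.2 CPM (2.71-fold, log2 change 1.44 ± 0.06). Its copy Eif3j2 was called in the same direction (log2 change 0.72), and reads of the copies may have been exchanged, since no source used here gives the treatment of reads with several matches.

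The 2 largest falls of all 56 factors, those of Eif3f and Eif3k, were in eIF3 too. Eif3f went from 494, 495 and 506 CPM to 194, 200 and 192 CPM (2.55-fold lower, log2 change -1.35 ± 0.03, adjusted p = 2.64e-48). Eif3k fell from 225, 223 and 216 CPM to 106, 101 and 100 CPM (2.16-fold, log2 change -1.11 ± 0.03, adjusted p = 1.39e-37), and Eif3h from 583, 599 and 584 CPM to 298, 300 and 318 CPM (1.93-fold, log2 change -0.95 ± 0.03). No overexpression library reached a control library for any of these genes. Eif3e and Eif3m were lower as well (log2 changes -0.71 and -0.53). The subunits f, h, e, k and m belong to the ring of PCI and MPN domain subunits that also holds a, c and l. Grouped this way after their values were seen, 5 of these 8 genes fell and 3 rose (median log2 change -0.62), and of the other 6 genes 3 rose and 3 fell (median 0.26). With the length and GC trend removed these medians were -0.38 and 0.71. Over all tested genes 43.9% fell and 42.1% rose as counted. A grouping made after the values were seen describes them and is no test of the ring. Smaller calls depended on the processing: Eif3c (log2 change 0.08) was -0.15 with upper quartile scaling and -0.02 on FPKM, Eif3g (-0.29) was 0.58 with the length and GC trend removed, and Eif3d (-0.21) was then no longer called (-0.05).

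On FPKM the order of the 12 eIF3 subunits, without the j copies, changed at the top. In the controls Eif3h led with 377 ± 5.27 (SD, n = 3), followed by Eif3f with 178 ± 2.27. With overexpression Eif3b led with 221 ± 0.589 and Eif3h followed with 183 ± 6.43, while Eif3f was at 65.4 ± 1.46. Eif3d was lowest in both groups, at 15.5 and 12.6. The ratio of Eif3b to Eif3f was 0.554, 0.551 and 0.538 in the controls and 3.4, 3.29 and 3.43 with overexpression (exact permutation test, two-sided p = 0.1). The pair was picked after the values were seen, from genes whose groups lay apart in opposite directions. The test could therefore only return its smallest p, and the ratio is a description. The summed FPKM of all 14 eIF3 genes was 1450 ± 13.1 (SD, n = 3) in the controls and 1202 ± 5.08 with overexpression (log2 ratio -0.27), while their summed CPM, which is not divided by length, was 4584 ± 35.3 and 4699 ± 11 (0.04). The direction of the sum thus differs between the scales.

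**Figure D2:**
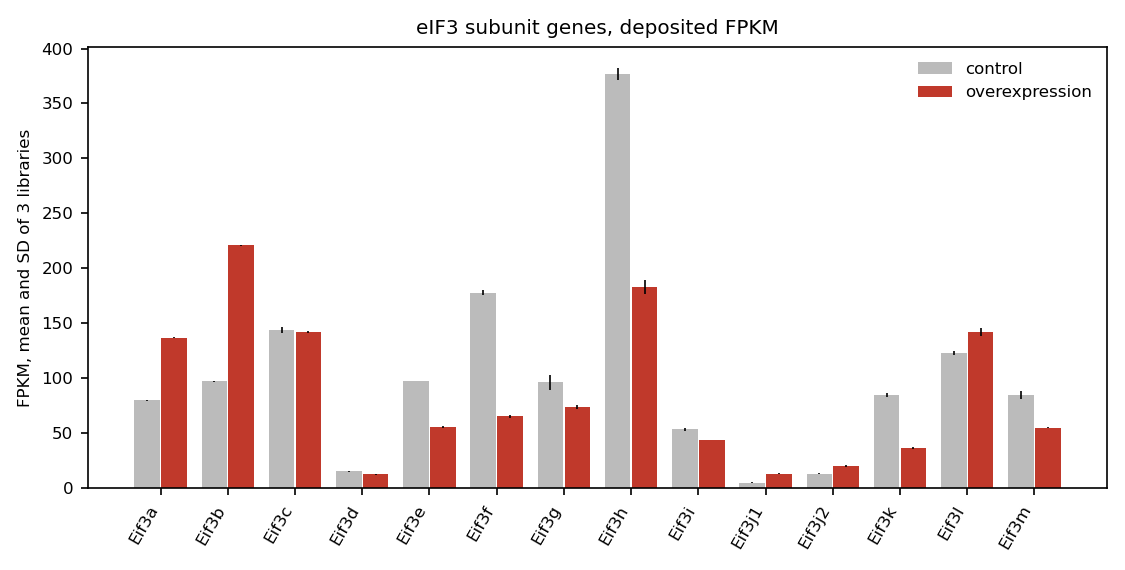
Deposited FPKM of the 14 eIF3 genes in control (grey) and overexpression (red) libraries; bars give the mean and lines the SD of 3 libraries, and the axis starts at 0. Eif3h and Eif3f were the most abundant in the controls (377 and 178), and Eif3b was with overexpression (221).

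The cap-binding complex was higher in each of its 3 main parts. Eif4g1, the scaffold, had the second largest rise of all 56 factors, from 506, 514 and 510 CPM to 1801, 1789 and 1793 CPM (3.52-fold, log2 change 1.81 ± 0.02, adjusted p = 2.81e-60). Eif4e, which binds the cap, went from 130, 136 and 134 CPM to 261, 261 and 262 CPM (1.96-fold, log2 change 0.97 ± 0.03, adjusted p = 8.65e-37). Eif4a1, the main helicase, rose less, from 992, 1013 and 998 CPM to 1355, 1409 and 1364 CPM (1.37-fold, log2 change 0.46 ± 0.02). The groups of all 3 genes were apart. The ratio of Eif4g1 to Eif4e on FPKM, also picked after the values were seen, rose from 3.15 ± 0.0439 to 5.66 ± 0.0298 (SD, n = 3, exact permutation test, two-sided p = 0.1). The 3 messengers thus did not rise by equal amounts.

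Of the other eIF4 genes, Eif4g2, a relative of the scaffold that lacks the eIF4E binding site, rose from 616, 613 and 626 CPM to 1514, 1538 and 1527 CPM (2.47-fold, log2 change 1.30 ± 0.02, adjusted p = 9.32e-53). Eif4g3 rose from 108, 111 and 107 CPM to 154, 150 and 150 CPM (log2 change 0.48 ± 0.04). All 3 scaffold genes thus rose, and Eif4g1 took 49.7% ± 0.234 (SD, n = 3) of their summed FPKM in the controls and 60% ± 0.223 with overexpression. Eif4a2 was at 437, 439 and 456 CPM in the controls and at 483, 491 and 480 CPM with overexpression (log2 change 0.13), and Eif4e2, a cap-binding relative known for repression, went from 96.6, 99.5 and 101 CPM to 108, 109 and 112 CPM (0.15). Both calls are small, and both turned below 0 with upper quartile scaling (-0.10 and -0.08) and with the length and GC trend removed (-0.16 and -0.02). Eif4h, a helper of the helicase, was higher by 0.13 (but -0.10 with upper quartile scaling). Eif4b, another helper, was the only eIF4 gene called lower (-0.15, but 0.00 with the trend removed). Eif4a3, a helicase of the exon junction complex, did not pass the test (-0.01, adjusted p = 0.813), but was called lower with upper quartile scaling (-0.24) and higher with the trend removed (0.74), and Eif4e3 had 2 reads, both in 1 overexpression library.

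Among the factors of subunit joining, Eif5b was nearly level, at 339, 340 and 339 CPM against 328, 347 and 331 CPM (log2 change -0.02 ± 0.03, adjusted p = 0.579). It became a call in the lower direction with upper quartile scaling (-0.25) and with the length and GC trend removed (-0.52). Eif6, which keeps the ribosomal subunits apart, went from 163, 169 and 159 CPM to 209, 191 and 201 CPM (log2 change 0.29 ± 0.03). The Eif6 call was lost with upper quartile scaling (0.06, adjusted p = 0.0765), and the change was 1.15 with the trend removed. Eif5a carries the amino acid hypusine and helps ribosomes through difficult peptide bonds; it rose from 795, 823 and 830 CPM to 1456, 1472 and 1485 CPM (1.8-fold, log2 change 0.85 ± 0.02, adjusted p = 6.43e-43). Its paralog Eif5a2, the third largest rise, went from 11.5, 10.9 and 12.8 CPM to 38.2, 30.3 and 33.2 CPM (2.89-fold, log2 change 1.53 ± 0.09, adjusted p = 7.61e-23). Even so, Eif5a2 was only 1.08% ± 0.134 (SD, n = 3) of the summed FPKM of both paralogs with overexpression, after 0.675% ± 0.0522 in the controls.

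**Figure D3:**
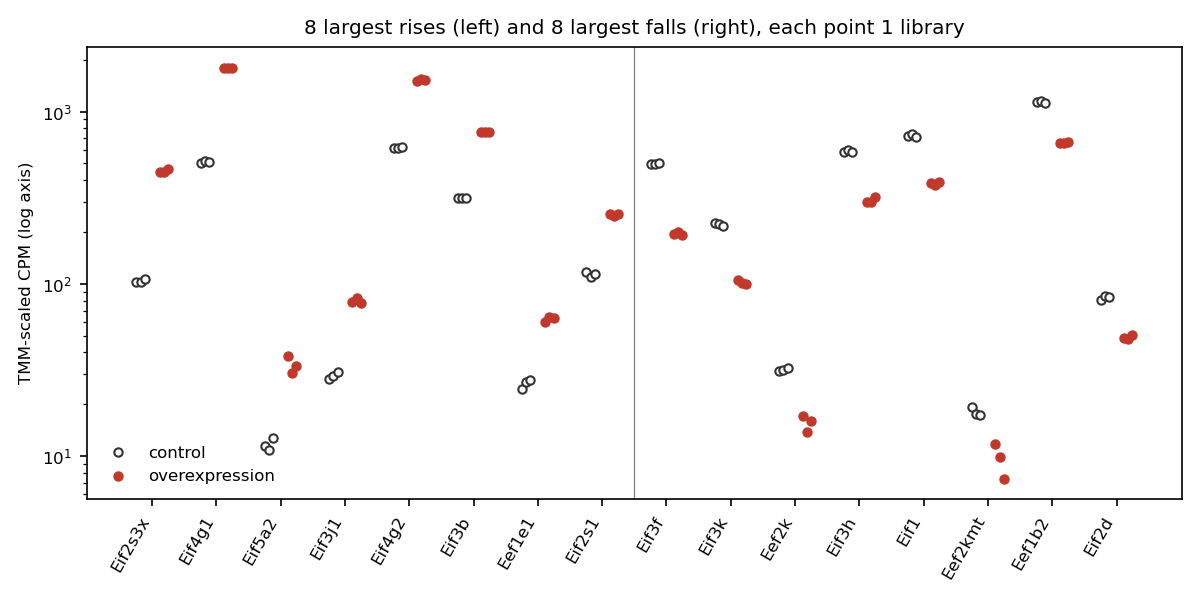
TMM-scaled CPM on a log axis of the 8 factors with the largest rise (left of the line) and the 8 with the largest fall (right), each point 1 library. All 16 genes were chosen among called factors whose groups do not overlap, so the open control points and the filled overexpression points are apart by selection. Groups were also apart for 42.2% (higher) and 43.8% (lower) of all tested genes.

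The elongation factor genes Eef1a1 and Eef2 had the highest levels of the 63 genes in both groups. Of 5 tested elongation factors 4 fell, beside 43.9% of all tested genes. Eef1a1 was at 16721, 16873 and 16995 CPM in the controls and at 12338, 12361 and 12384 CPM with overexpression (1.36-fold lower, log2 change -0.45 ± 0.01, adjusted p = 5.89e-37). Its paralog Eef1a2, known from muscle and neurons, had no read. Eef2 fell from 7431, 7606 and 7611 CPM to 4568, 4519 and 4593 CPM (1.66-fold, log2 change -0.73 ± 0.02, adjusted p = 4.09e-45). The Eef2 call ended when the length and GC trend was removed (-0.01, adjusted p = 0.738). Of the eEF1B complex, which reloads eEF1A with GTP, Eef1b2 fell from 1136, 1157 and 1122 CPM to 654, 658 and 663 CPM (1.73-fold, log2 change -0.79 ± 0.02, adjusted p = 9.52e-41). Eef1g was lower too (-0.46, but 0.08 with the trend removed), while Eef1d did not pass the test (0.00, adjusted p = 0.869; called lower with upper quartile scaling, -0.22, and with the trend removed, -0.16).

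Genes named after elongation factors but encoding their partners or modifying enzymes went both ways, with 2 of 7 tested higher, 3 lower and 2 not called. The shares over all tested genes were 42.1% higher and 43.9% lower. Eef1e1, a scaffold of the aminoacyl-tRNA synthetase complex, rose from 24.4, 27 and 27.8 CPM to 60.1, 64 and 63.4 CPM (2.37-fold, log2 change 1.24 ± 0.06, adjusted p = 1.42e-26). Eef2k, the kinase that inhibits eEF2, fell from 31.1, 31.8 and 32.5 CPM to 17, 13.9 and 15.9 CPM (2.04-fold, log2 change -1.03 ± 0.09, adjusted p = 5.6e-17). Both changes kept their call with the length and GC trend removed (1.29 and -1.11). Eef2kmt, a methyltransferase of eEF2, went from 19.4, 17.5 and 17.3 CPM to 11.7, 9.9 and 7.39 CPM (1.87-fold lower, log2 change -0.91 ± 0.12), a call that ended with the trend removed (-0.23, adjusted p = 0.0562). Eef1aknmt, which methylates eEF1A, rose (1.01), Eef1akmt2 was lower (-0.32, but -0.08 and not called with the trend removed), and Eef1akmt1 and Eef1akmt4 did not pass the test. Eef1akmt1 (0.02) was called lower with upper quartile scaling (-0.21) and higher with the trend removed (0.75). Eef1akmt2 shares its span and strand with Fgfr2, whose level went from 12.9 to 111 CPM, and reads of these genes may not be told apart.

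Summed over all 63 factors, the level was 40163 ± 372 CPM (SD, n = 3) in the controls and 36149 ± 105 CPM with overexpression, a log2 ratio of -0.15 (exact permutation test, two-sided p = 0.1; 22 sums computed, adjusted p = 0.105). On this scale the direction rested on 1 gene: without Eef1a1 the sums were 23300 ± 264 and 23787 ± 83.6 CPM, and the log2 ratio was 0.03. The elongation factors alone went from 27263 ± 265 to 18897 ± 73.9 CPM. The eIF4 genes went from 4328 ± 38.9 to 7096 ± 27.7 CPM and the eIF2 group from 718 ± 10.6 to 1122 ± 10.4 CPM. On summed FPKM, the log2 ratio was -0.38 for all 63 factors and -0.24 without Eef1a1, so there the direction did not rest on that gene.

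**Figure D4:**
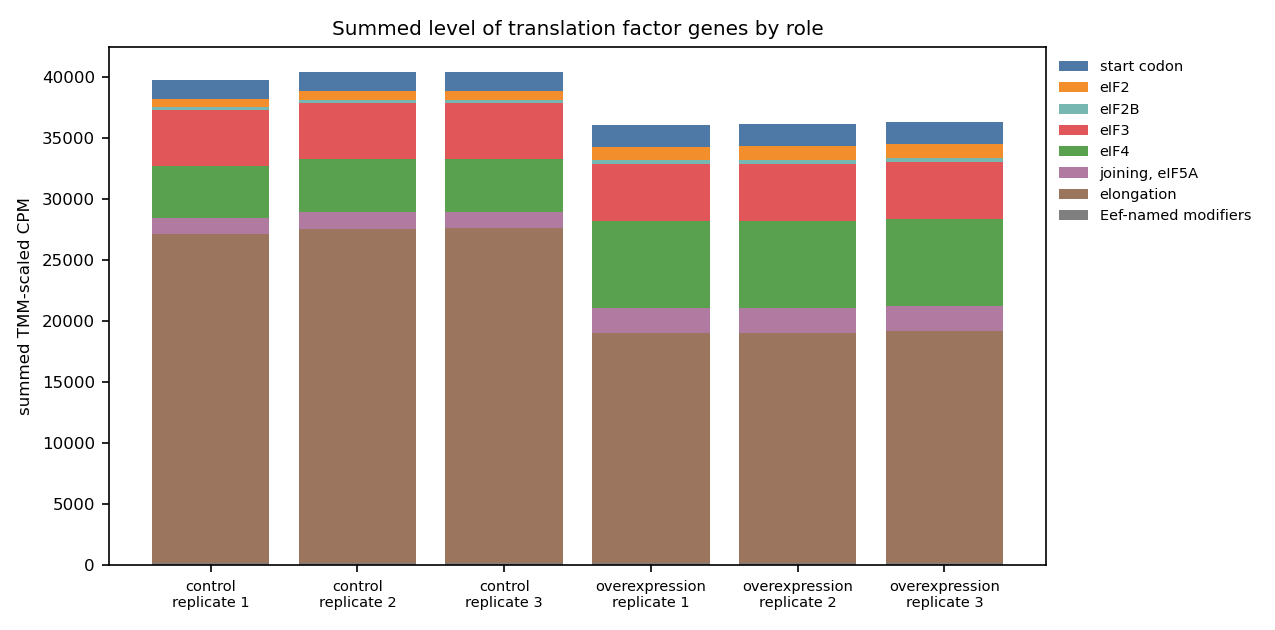
Summed TMM-scaled CPM of the factors in each of the 6 libraries, stacked by role, with an axis that starts at 0. The elongation factor part is smaller in the 3 overexpression libraries (mean 18897 CPM) than in the 3 controls (27263 CPM), and the eIF4 part is larger (7096 against 4328 CPM); the Eef-named modifiers (145 to 181 CPM) are too small to see.

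The factors' changes moved with gene length. The 28 tested factors shorter than the median deposited length of 3670 bases had a median log2 change of -0.25, with 10 higher and 14 lower. The 28 others had a median of 0.41, with 18 higher and 8 lower. Among all tested genes of any length, 42.1% were higher and 43.9% lower. Spearman's rho between length and change was 0.36 over the 56 factors and 0.33 over all 11809 tested genes, across genes that share the same 6 libraries and are not independent replicates. Averaged over counted reads, gene length was 5091 to 5119 bases in the controls and 6021 to 6050 bases with overexpression. Length cannot be told apart from the treatment in this design, and its part in the changes of single genes was not tested beyond the fit with the trend removed. In that fit Eif2s3x (2.08), Eif4g1 (1.98) and Eif3b (1.93) led the rises, and Eif3e (-1.13) and Eef2k (-1.11) led the falls.

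**Figure D5:**
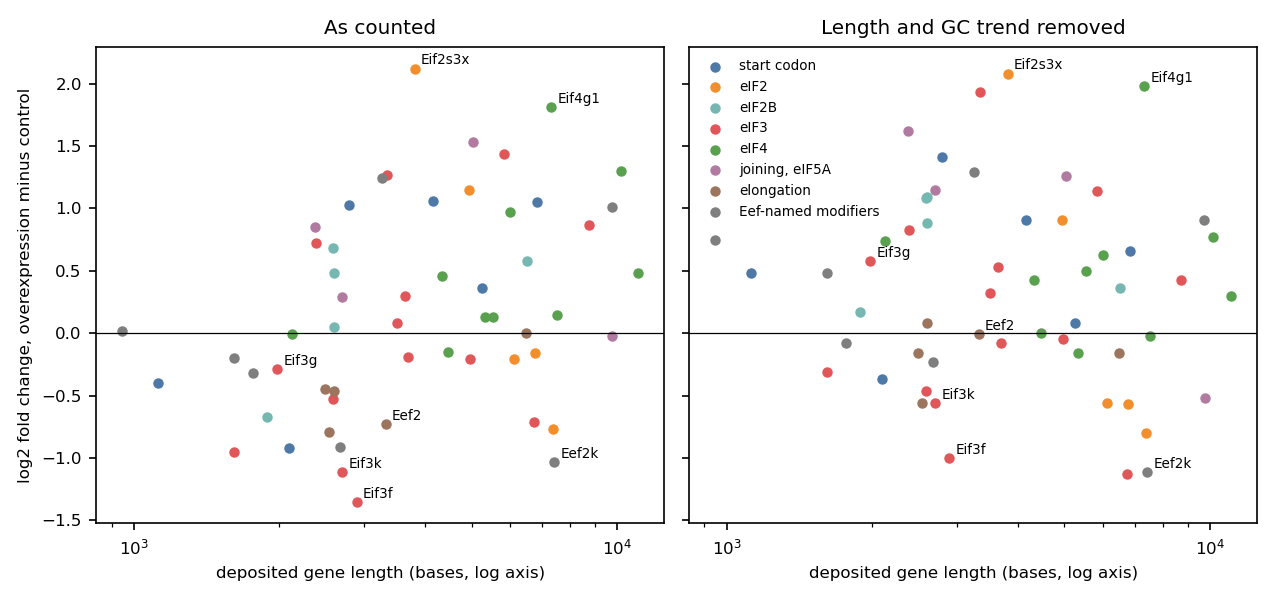
Log2 fold change of the 56 tested factors against deposited gene length (log axis), as counted (left) and with the trend on length and GC content removed (right); each point is a gene, coloured by role. Eif2s3x, Eif4g1 and Eef2k stay at about the same height (2.12 and 2.08 for Eif2s3x), while Eef2 moves from -0.73 to -0.01.

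The factors listed here as 5' TOP messengers were mostly lower. Of the 11 genes on this list 9 were lower, beside 43.9% of all tested genes. The list need not be complete and was chosen with earlier results of these data known. Eef1d did not pass the test, and Pabpc1 was higher by 0.07 (adjusted p = 0.0118). The Pabpc1 call was lost without control replicate 3 (0.03, adjusted p = 0.0903), with a 50-count filter (0.02) and against the 1.5-fold minimum. It was also lost on FPKM (-0.03). It turned with upper quartile scaling (-0.16) and with the length and GC trend removed (-0.23). The median log2 change of the list was -0.71 as counted and -0.23 with the trend removed, where 8 genes were lower and 1 higher. Of all tested genes, 42.1% were higher as counted, and 37.7% were lower and 47.7% higher with the trend removed. The cytosolic ribosomal protein genes, the main TOP class, had 74 lower and 4 higher of 81 tested (median -1.04; 62 lower and 16 higher with the trend removed, median -0.43). Their share of all counted reads was 8.99% to 9.15% in the controls and 4.22% to 4.33% with overexpression. The annotated start is shown for Eif3f and Eef1a1 (listed TOP factors that fell) and for Eif2s3x (not on that list, the largest rise). Each window runs from 10 bases before to 20 bases after the RefSeq start (GRCm38.p6), with the longest pyrimidine run in capitals.
Eif3f (chr7:108934405-108934434, plus strand): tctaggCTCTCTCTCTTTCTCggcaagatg
Eef1a1 (chr9:78481705-78481734, minus strand): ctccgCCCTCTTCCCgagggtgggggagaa
Eif2s3x (chrX:94212632-94212661, minus strand): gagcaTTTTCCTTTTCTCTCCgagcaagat
The longest runs were 15, 10 and 16 bases in this order, and each began before the RefSeq start. Whether transcription begins at these RefSeq starts was not tested, nor was any part of the runs in the changes. A run of at least 8 was found in 13.6% of the factors' 59 promoters (48 genes matched), in 11.3% of promoters of all tested genes and in 32.5% of those of ribosomal protein genes. Of 7 tested factors with such a run, 4 were higher and 3 lower. Among 38 tested factors without it, 19 were higher and 15 lower. Of 5 listed TOP factors with a promoter 2 had such a run (40%), beside 6 of 54 promoters of the other factors (11.1%). The run was thus more frequent on the list, with few genes, but did not mark every listed TOP factor. Eef1d, Eef1g, Eif3e and Eif3h had no promoter in RefSeq.

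The same promoters were searched for CACGTG, the E-box core that Myc and related factors bind, which reads the same on both strands. It was in 16 of 59 factor promoters (27.1%), in 9.86% of 12117 promoters of tested genes and in 10.4% of those of ribosomal protein genes, all 300 bases long, with a median GC content of 62% in the factors and 61% in tested genes. The 100 bases before the start are shown for 2 factors that rose and 2 that fell, with CACGTG in capitals.
Eif4g1 (chr16:20672627-20672726, plus strand, higher): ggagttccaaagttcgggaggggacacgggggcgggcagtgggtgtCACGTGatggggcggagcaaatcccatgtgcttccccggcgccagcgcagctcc
Eif4e (chr3:138527168-138527267, plus strand, higher): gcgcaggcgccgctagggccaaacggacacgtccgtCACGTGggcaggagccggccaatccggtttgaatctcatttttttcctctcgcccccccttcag
Eif3f (chr7:108934315-108934414, plus strand, lower): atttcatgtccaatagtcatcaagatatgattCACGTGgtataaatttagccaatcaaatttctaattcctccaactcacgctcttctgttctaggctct
Eef2 (chr10:81176531-81176630, plus strand, lower): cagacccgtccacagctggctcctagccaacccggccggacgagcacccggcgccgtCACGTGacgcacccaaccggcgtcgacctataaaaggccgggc
The first base of the letters lay 54, 64, 68 and 43 bases before the start in this order. Genes with the letters went both ways: of 14 factors 8 were higher and 5 lower (median log2 change 0.29), and of 31 tested factors without them 15 were higher and 13 lower (median 0.05). Over all tested genes with a promoter in the table, 529 of 1113 with the letters were higher and 431 lower (median 0.10), and 3470 of 8324 without them were higher and 3706 lower (median -0.04). A match is a description of the letters and shows no binding.

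Among 19 tested kinases and binding proteins that act on initiation, 9 rose and 7 fell (median log2 change 0.06). Over all tested genes the shares were 42.1% and 43.9%, so the count is near the background. With upper quartile scaling 9 were higher and 10 lower, beside 33.5% and 53.2% of all tested genes. Pdcd4, which binds eIF4A and blocks it, had the largest change of that list, from 81.8, 76.5 and 76.4 CPM to 7.86, 8.65 and 8.72 CPM (9.31-fold lower, log2 change -3.21 ± 0.08, adjusted p = 6.54e-44). The 4E-BP genes, which encode the repressors of eIF4E, split: Eif4ebp1 fell (-1.05) and Eif4ebp2 rose (0.82). Mknk2, which encodes a kinase of eIF4E, fell (-1.20), and Mtor rose (0.97). Ppp1r15b, which directs a phosphatase to eIF2, rose (1.02).

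Among 19 tested genes of poly(A) binding, release and recycling, 11 rose and 4 fell (median 0.55), beside the same 42.1% and 43.9% of all tested genes. With upper quartile scaling 10 were higher and 9 lower, beside 33.5% and 53.2%. Abce1, which splits ribosomes after termination, went from 150, 146 and 152 CPM to 715, 723 and 704 CPM (4.79-fold, log2 change 2.26 ± 0.03, adjusted p = 4.25e-60). The release factor genes Gspt1 and Etf1 rose (1.66 and 1.11), as did the helicase gene Ddx3x (1.96) and Larp1, whose product binds TOP messengers (0.86). Tpt1, a TOP messenger itself, fell from 5367, 5255 and 5162 CPM to 1331, 1351 and 1377 CPM (3.89-fold, log2 change -1.96 ± 0.02). Of the 9 mitochondrial translation factors 3 were higher and 3 lower (median -0.08), beside 42.1% and 43.9% of all tested genes. With upper quartile scaling 2 were higher and 6 lower, beside 33.5% and 53.2%. Among the 9 factors Gfm1, a mitochondrial elongation factor, rose (1.63) and Mrrf, a ribosome recycling factor, fell (-0.95). Tufm and Tsfm, the mitochondrial elongation factor pair, were at 0.34 and 0.20, and Mtif2 and Mtrf1 at -0.24 and -0.42.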

How the data were processed

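Polyadenylated RNA was measured in 3 control and 3 overexpression libraries of PAM212 cells. The submitters' processing notes name HISAT2, HTSeq, DESeq and the build mm9, without roles. All 63 factors had the same coordinates in GENCODE release M21 of GRCm38, as had 21604 of 21936 genes, so GRCm38 was used for annotation. The authors deposited read counts and FPKM per gene, per the file headers; each of 82387 nonzero FPKM values equalled count over length and library total within 0.01%. A deposited table of the authors' comparison gives log2 fold changes and p-values for 60 of the factors; the authors' deposited table called 28 higher and 22 lower, the same direction for all 50, with log2 fold changes within 0.02 of those fitted here. No source used here gives the multiple-match and strand settings of the counting, and 13 factors overlap a gene on the opposite strand.

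From the counts, edgeR 4.0.16 (R 4.3.3) was fitted to all 6 libraries with TMM scaling, filterByExpr with a minimum count of 10 and the robust quasi-likelihood test, with Benjamini-Hochberg adjustment over 11809 tested genes and a threshold of 0.05. Standard errors were derived from the test statistic. The biological coefficient of variation was 2.93%. The script was tested on simulated data. Values in every library are given for the 8 largest rises and falls among called factors of at least 5 CPM without overlap of groups, a core set and paralog pairs. Of related lists up to 6 genes with the smallest p are named, and other genes by role. The members and lists were chosen with earlier results of these data known. Alternatives were DESeq2 1.42.0, limma 3.58.1 on log2(FPKM + 1), other scalings and filters, and a spline trend on length and GC content removed. Promoters, starts and microRNAs are from RefSeq (GRCm38.p6), and 15 of the 63 factors had no promoter there.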

Additional observations from a re-analysis of the deposited data

How the results depend on the processing

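The counts of factors called higher and lower were within 1.5 times of 28 and 22 under every alternative run, except against a 1.5-fold minimum, where 17 and 11 factors and 5947 genes in all were called. The factors' median log2 change moved from 0.06 to -0.17 with upper quartile scaling, to 0.39 with the length and GC trend removed, to 0.03 with a 50-count filter, to 0.12 without a filter, and on FPKM to -0.03 with a pseudocount of 0.1 and to -0.02 with 1 or 5. Leaving out 1 library at a time gave 0.05 to 0.09 and changed no factor's call (336 comparisons). The log2 ratio of summed levels was -0.38 with upper quartile scaling, -0.38 on FPKM and, without Eef1a1, 0.03 on CPM but -0.24 on FPKM. The direction turned with upper quartile scaling for Eif3c (-0.15), Eif4a2 (-0.10), Eif4e2 (-0.08) and Eif4h (-0.10), and on FPKM for Eif3c (-0.02). It also turned with the length and GC trend removed for Eef1g (0.08), Eif1b (0.48), Eif2b2 (0.17), Eif3g (0.58), Eif4a2 (-0.16) and Eif4e2 (-0.02); the cause was not tested. With the replicate number as a block, 28 factors were higher, 22 lower and 10116 genes called; with the replicate block and the trend removed, the median was 0.39 and the same 6 genes turned, with the values just given. Same-numbered libraries did not deviate together (correlations 0.00, 0.00 and -0.03). Low counts limit Eef1akmt4, at about 3 CPM, and the 7 untested factors.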
